A study of Mus musculus with 12 samples.

Results

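Fatty acid elongases and desaturases were described in mouse liver as 10 genes, Elovl1, Elovl2, Elovl3, Elovl5, Elovl6, Elovl7, Scd1, Scd2, Fads1 and Fads2. The members were the probes that carry one of these names in the scanner files. They comprised 12 probes, with 2 probes each for Elovl1 and Fads2, and all 10 genes passed the filter on dim probes, among 22143 genes tested in all. The probes lie, on the mm9 build, on chromosome 4 (Elovl1), 13 (Elovl2 and Elovl7), 19 (Elovl3, Scd1, Scd2, Fads1 and Fads2), 9 (Elovl5) and 3 (Elovl6).

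The study compared whole livers of wild type BALB/c mice and of BALB/c mice lacking interleukin-18 (Il18), a cytokine of the interleukin-1 family. The 4 groups were wild type at 6 weeks of age, wild type at 12 weeks, knockout at 6 weeks and knockout at 12 weeks, with 3 one-colour arrays each and no treatment in any group. The series asks how the liver transcriptome differs between the genotypes at each age. The labels call the arrays of a group biological replicates. Sex, time of day, diet, littermate status, the deleted part of Il18 and the number of animals behind each RNA are not given in the sources used here, so p-values measure the spread between these RNA samples.

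Elongases of the Elovl family carry out the condensation step that lengthens a fatty acyl-CoA by a unit of malonyl-CoA on the endoplasmic reticulum, and the family members differ in the chain length and saturation they prefer. Desaturases place a double bond in the chain: stearoyl-CoA desaturases (Scd) make monounsaturated fatty acids, and the fatty acid desaturases Fads1 and Fads2 act on polyunsaturated chains in turn with Elovl5 and Elovl2. In liver these enzymes shape the fatty acids that enter triglycerides, phospholipids and cholesterol esters. Hepatic Elovl3 RNA in mice is known to cycle over the day and to be more abundant in males.

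The arrays were checked before the members were read. The level of a gene is given throughout as log2 of its processed signal relative to the array's 75th percentile, so 1 unit is a 2-fold change. The 75th percentile ran from 349 to 420 in scanner units, and 50.1% to 57.7% of spots per array were well above background. Il18 stood at 2.40 ± 0.046 and 2.30 ± 0.18 (SD, n = 3) in wild type livers at 6 and 12 weeks and at -0.14 ± 0.19 and -0.038 ± 0.079 in knockout livers. All 8 hepatocyte markers listed passed the filter on dim probes. Of 8 fat cell markers, Adipoq, Plin1, Lep and Ucp1 did not, and Fabp4, Lipe, Cfd and Retn did. The summed linear level of these 4 was 4.73 to 6.98 in the wild type arrays and 6.74 to 7.67 in the knockout arrays, and Cfd was called higher in the knockout on average over ages (2.03 ± 0.61, adjusted p = 0.0398). Cfd was called at neither 6 nor 12 weeks (adjusted p = 0.32 and 0.0698). Its average call was lost with the slide, described below, as a fixed block (adjusted p = 0.29). Cfd was well above background on 1 of 3 young wild type arrays. The sum of 4 red blood cell markers was 64.7 to 105 in the wild type arrays and 115 to 182 in the knockout arrays, although Klf1 among them was called lower at 6 weeks (-0.91, adjusted p = 0.0218) and higher at 12 weeks (1.26, adjusted p = 0.0116). The sum of 7 lymphocyte markers was 61.9 to 102 in the wild type and 36.8 to 61.3 in the knockout arrays. The part of these marker levels in the results was not tested. In whole liver, fewer cells of a type and less RNA per cell cannot be told apart.

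The arrays lay on 2 slides. Slide 1 held the 3 wild type arrays at 6 weeks and replicate 1 of the wild type at 12 weeks, and slide 2 held all other arrays. At 6 weeks slide and genotype therefore coincided, and a slide term can separate them only through wild type replicate 1 at 12 weeks. The change with age in the knockout lay wholly on slide 2.

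Upstream sequences were taken from RefSeq on GRCm38.p6 to show what lies before the start of members with and without a call between genotypes. The table held 6 of the 10 members. Those not matched were Elovl3, Fads1, Scd1 and Scd2. The 250 bases before the start are printed for Elovl5, which was called between genotypes at 6 weeks, and for Elovl6 and Fads2, which were not called between genotypes at either age, in the direction of transcription, with motif matches in capitals. Elovl1, also called at 6 weeks, was in the table but is not printed. The 6-week calls of Elovl5 and Elovl1 were lost with the slide as a fixed block (adjusted p = 0.114 and 0.881).
Elovl5, chr9:77917115-77917364, plus strand: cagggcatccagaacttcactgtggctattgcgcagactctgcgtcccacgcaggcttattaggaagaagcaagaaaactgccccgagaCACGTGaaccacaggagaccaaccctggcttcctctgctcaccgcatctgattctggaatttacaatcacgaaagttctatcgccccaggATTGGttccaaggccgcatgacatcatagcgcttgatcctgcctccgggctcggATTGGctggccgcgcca
Elovl6, chr3:129532136-129532385, plus strand: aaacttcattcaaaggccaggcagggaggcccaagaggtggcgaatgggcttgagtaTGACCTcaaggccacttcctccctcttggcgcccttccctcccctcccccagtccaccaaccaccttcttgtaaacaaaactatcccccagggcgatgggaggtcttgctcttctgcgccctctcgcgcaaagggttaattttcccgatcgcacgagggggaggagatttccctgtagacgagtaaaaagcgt
Fads2, chr19:10101504-10101753, minus strand: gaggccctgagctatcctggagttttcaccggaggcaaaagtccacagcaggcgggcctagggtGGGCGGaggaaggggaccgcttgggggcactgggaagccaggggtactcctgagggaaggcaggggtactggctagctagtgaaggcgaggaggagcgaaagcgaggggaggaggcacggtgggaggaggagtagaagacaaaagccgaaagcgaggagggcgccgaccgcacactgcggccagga

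The capitals mark matches to 7 motifs searched on both strands. These were the E-box CACGTG bound by clock and lipogenic bHLH factors, the nuclear receptor core AGGTCA, the D-box TTATGNAA, the sterol response element TCACNCCAC, the STAT site TTCNNNGAA, the CCAAT box CCAAT and the GC box GGGCGG. Elovl5 held an E-box 161 bases before its start, which reads the same on both strands, and 2 CCAAT boxes on the reverse strand, 71 and 17 bases before it. Elovl6 held a nuclear receptor core on the reverse strand 193 bases before its start, and Fads2 a GC box 186 bases before it. Among 32851 upstream regions of 250 bases, 6.02% held the E-box, 14.0% the nuclear receptor core, 33.9% the CCAAT box and 32.7% the GC box. Over the 8 regions of the 6 members found, the E-box was in 1 gene (Elovl5), the nuclear receptor core in 2 (Elovl1 and Elovl6), the CCAAT box in 2 (Elovl1 and Elovl5) and the GC box in 4 (Elovl1, Elovl2, Elovl7 and Fads2). Counted by region, as the shares are, the E-box was in 1, the nuclear receptor core in 2, the CCAAT box in 2 and the GC box in 5 of the 8. In Elovl1 a CCAAT box overlaps a GC box. The D-box, the sterol response element and the STAT site, present in 3.07%, 1.05% and 7.02% of the regions, matched none of the 8. A match describes letters and not a bound site.

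Knockout livers at 6 weeks had more RNA of 4 members than wild type livers: Elovl3 rose 71.4-fold, Scd1 2.11-fold, Elovl5 1.75-fold and Elovl1 1.39-fold. Of these, Elovl3 alone kept its call with the slide as a fixed block, and the adjusted p was 0.131 for Scd1, 0.114 for Elovl5 and 0.881 for Elovl1. None of the 10 fell, and none was lower at an unadjusted p under 0.05. Calls are limma's at an adjusted p (Benjamini-Hochberg over all 22143 genes) under 0.05. In this comparison 11.7% of all genes were called higher and 9.34% lower. The median log2 difference was 0.34 over the 10 members and 0.017 over all genes. At 12 weeks no member passed, although 2 were higher and 2 lower at an unadjusted p under 0.05, and 5.65% and 2.56% of all genes were called higher and lower. The median log2 difference of the members at 12 weeks was -0.13, beside 0.014 over all genes.

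**Figure D1:**
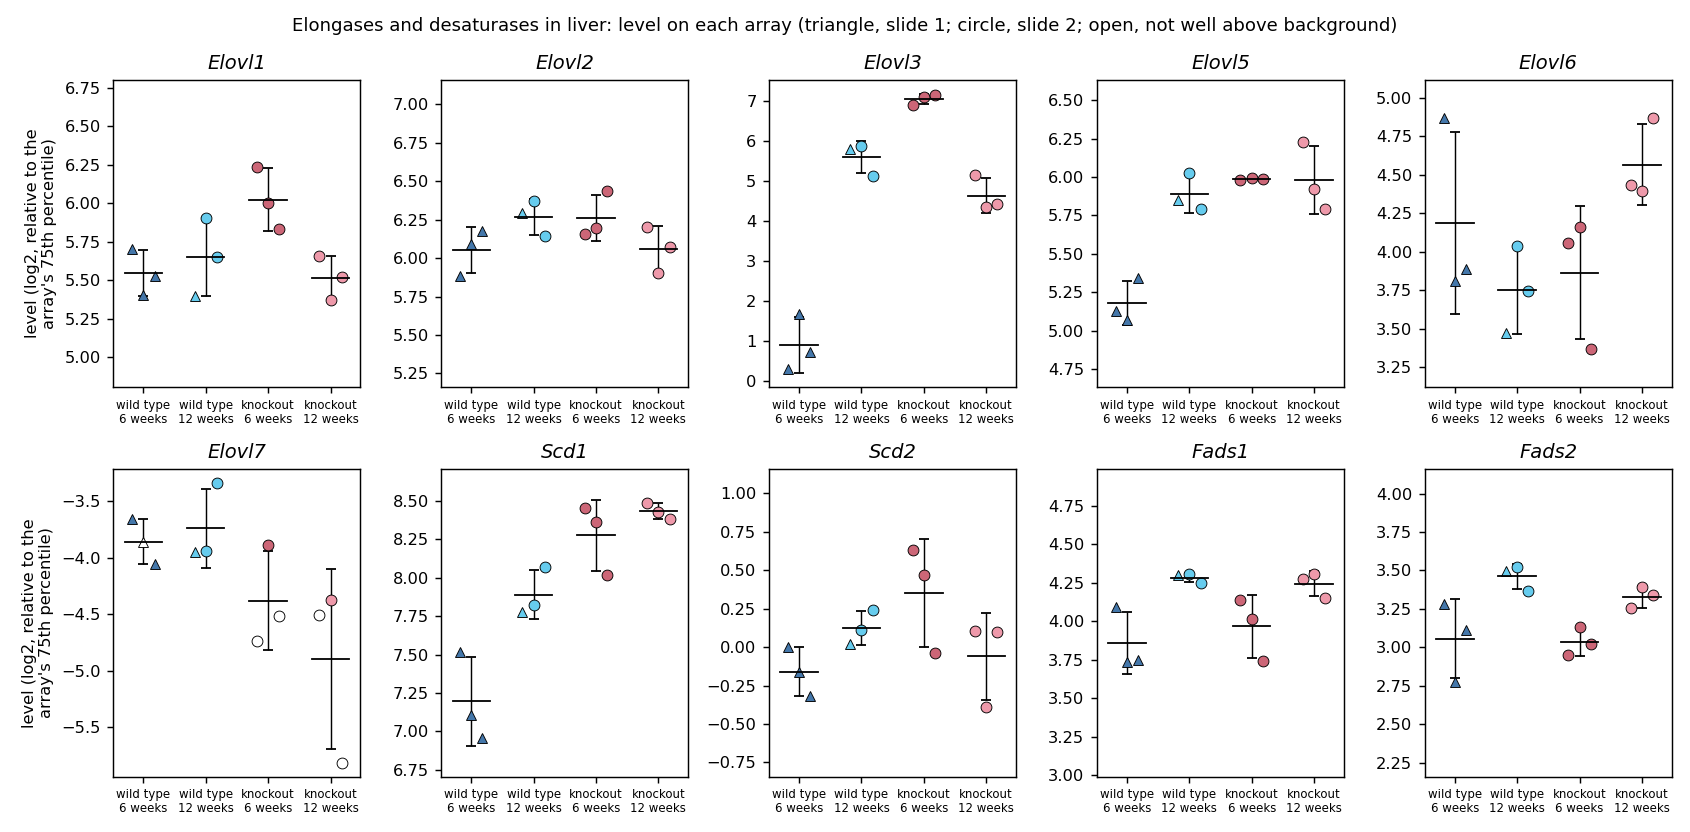
Level of each of the 10 members on each of the 12 arrays (vertical axis, log2 relative to the array's 75th percentile, with a separate range per panel of at least 2 units), by group along the horizontal axis; lines are group means and bars 1 SD (n = 3), triangles are slide 1, circles slide 2, and open symbols are not well above background. Elovl3 spans 0.30 to 7.16, while Elovl2 stays between 5.88 and 6.44.

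Elovl3, which makes very long saturated and monounsaturated chains in liver, skin and brown fat, differed most among the members. Its levels on the 3 arrays were 0.30, 1.67 and 0.72 in wild type liver at 6 weeks and 6.91, 7.10 and 7.16 in knockout liver at 6 weeks. They were 5.79, 5.88 and 5.14 in wild type at 12 weeks and 5.14, 4.34 and 4.42 in knockout at 12 weeks. All 3 young wild type arrays therefore stood apart from the other 9, the young knockout arrays were the highest, and at 12 weeks the genotypes overlapped at a single array each. The order of group means was knockout at 6 weeks, wild type at 12 weeks, knockout at 12 weeks and wild type at 6 weeks.

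The difference between genotypes in Elovl3 at 6 weeks was 6.16 ± 0.34 on the log2 scale (SE, limma adjusted p = 9.49e-06). At 12 weeks the knockout mean was below the wild type mean, with a difference of -0.96 ± 0.34 that did not pass (adjusted p = 0.111). Elovl3 rose 26.1-fold with age in the wild type (4.70 ± 0.34, adjusted p = 8.35e-05) and fell 5.35-fold with age in the knockout (-2.42 ± 0.34, adjusted p = 0.0035). The genotype difference changed by -7.12 ± 0.48 from 6 to 12 weeks (adjusted p = 5.77e-05). The comparisons of genotype at 6 weeks and of age in the wild type share the young wild type arrays, so their values are not independent. With the slide as a fixed block the 6-week difference was 6.44 ± 0.64 (adjusted p = 0.00275) and the wild type age difference 4.89 ± 0.50 (adjusted p = 0.00207). Within slide 1 alone, 3 young against 1 older wild type array, the age difference of 4.89 did not pass (adjusted p = 0.0928). The fall in the knockout lay on slide 2 and was -2.42 ± 0.26 with that slide alone (adjusted p = 0.00677).

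Elovl5 lengthens polyunsaturated chains after the Fads2 step. Its levels were 5.13, 5.07 and 5.34 in wild type at 6 weeks, 5.85, 6.03 and 5.79 in wild type at 12 weeks, 5.98, 5.99 and 5.99 in knockout at 6 weeks and 6.23, 5.92 and 5.79 in knockout at 12 weeks. As with Elovl3, the 3 young wild type arrays were below all others, and the other groups overlapped. The genotype difference was 0.81 ± 0.12 at 6 weeks (adjusted p = 0.00187) and 0.091 ± 0.12 at 12 weeks (adjusted p = 0.682). Elovl5 rose by 0.71 ± 0.12 with age in the wild type (adjusted p = 0.00698), and its difference with age in the knockout was -0.0057 ± 0.12 (adjusted p = 0.988). The genotype difference changed by -0.71 ± 0.17 between ages (adjusted p = 0.0241). The slide block ended these calls, at 0.75 ± 0.22 for genotype at 6 weeks (adjusted p = 0.114), 0.67 ± 0.17 for age (adjusted p = 0.0739) and -0.68 ± 0.21 for their difference (adjusted p = 0.0906). The change of the genotype difference passed when 5 of the 12 arrays were left out in turn and was lost without wild type replicate 1 or 2 at 6 weeks, wild type replicate 2 at 12 weeks, knockout replicate 2 or 3 at 6 weeks, or knockout replicate 2 or 3 at 12 weeks. Elovl5 lies 27.4 Mb from Il18 on chromosome 9, and any part of that position was not tested.

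Elovl1, a broadly expressed elongase of saturated and monounsaturated very long chains, was at 5.70, 5.41 and 5.53 in young wild type liver and at 6.24, 6.00 and 5.83 in young knockout liver. These groups did not overlap, and the difference of 0.48 ± 0.15 was close to the threshold (adjusted p = 0.0463). It was 0.095 ± 0.24 with the slide as a fixed block (adjusted p = 0.881), and leaving out single arrays kept the call in 3 of 12 cases, with adjusted p up to 0.881 over all settings. The dimmer Elovl1 probe gave 0.31 (adjusted p = 0.171) at 6 weeks. At 12 weeks the Elovl1 difference was -0.14 ± 0.15 (adjusted p = 0.621). From 6 to 12 weeks the knockout difference was -0.51 ± 0.15, with no overlap between ages and no call (adjusted p = 0.0727). This age difference was called with the slide as a fixed block (adjusted p = 0.047), in a fit where its size was the same.

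Elovl6 takes palmitate to stearate. Its 3 arrays ran from 3.81 to 4.87 in young wild type, 3.47 to 4.04 in older wild type, 3.37 to 4.16 in young knockout and 4.39 to 4.87 in older knockout livers. The older knockout arrays were all above the older wild type and the young knockout arrays. The genotype difference at 12 weeks was 0.81 ± 0.30 (adjusted p = 0.129), at 6 weeks -0.33 ± 0.30 (adjusted p = 0.462), and neither passed. On slide 2 alone, 3 knockout against 2 wild type arrays, the difference at 12 weeks was 0.67 ± 0.26 (adjusted p = 0.196).

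Elovl2, an elongase of long polyunsaturated chains, varied least. Its group means lay between 6.05 and 6.27, a range of 0.22 beside a pooled SD of 0.14. Its genotype differences were 0.21 ± 0.12 at 6 weeks and -0.21 ± 0.12 at 12 weeks (adjusted p = 0.217 and 0.303), and no comparison of Elovl2 passed.

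Elovl7, an elongase of saturated very long chains, was near background. It was well above background on 2 of 3 young wild type, 3 of 3 older wild type, 1 of 3 young knockout and 1 of 3 older knockout arrays, so a part of its levels rests on dim spots. It passed the filter through the older wild type alone, the group with its highest mean. Levels were -3.66, -3.86 and -4.05 in young wild type, -3.95, -3.94 and -3.34 in older wild type, -4.73, -3.89 and -4.52 in young knockout and -4.51, -4.37 and -5.81 in older knockout livers. At 12 weeks the genotypes did not overlap, with a difference of -1.16 ± 0.36 that missed the threshold (adjusted p = 0.0779). Averaged over both ages, the fitted difference of Elovl7 was -0.84 ± 0.26 (adjusted p = 0.0434), in a comparison where 7.84% of all genes were called lower. Because of the filter and of the 4 knockout arrays not well above background, this value is given as fitted and not read as a change. It was past the threshold in 2 of 8 other settings and in 2 of 12 fits without a single array, and it was -0.11 after a different background correction of the raw signals.

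Scd1, the main desaturase of liver and a source of oleate, was higher in the knockout. Levels were 7.52, 7.11 and 6.96 in young wild type, 7.78, 7.82 and 8.07 in older wild type, 8.45, 8.36 and 8.02 in young knockout and 8.49, 8.43 and 8.38 in older knockout livers. Neither age had an overlap between genotypes, and the older knockout arrays were the closest together of the 4 groups. The difference was 1.08 ± 0.16 at 6 weeks (adjusted p = 0.00169) and 0.54 ± 0.16 at 12 weeks, where it did not pass (adjusted p = 0.0596). The 12-week difference passed without wild type replicate 1 at 6 weeks (adjusted p = 0.0357), without wild type replicate 3 at 12 weeks (adjusted p = 0.049) and in 2 other settings. On slide 2 alone it was 0.49 ± 0.14 (adjusted p = 0.115).

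Averaged over both ages, Scd1 was 1.75-fold higher in the knockout (0.81 ± 0.11, adjusted p = 0.00186). Elovl3 (6.05-fold, adjusted p = 0.000292) and Elovl5 (1.36-fold, adjusted p = 0.00718) were called higher there too, and 12.6% of all genes were. Elovl5 lost this call with the slide as a fixed block (0.41, adjusted p = 0.196), as it did with the slide as a random block (0.43, adjusted p = 0.0567). For Elovl3 that average joins a 6-week difference above 0 and a 12-week difference below it. For Scd1 the change of the genotype difference between ages, -0.54 ± 0.22, did not pass (adjusted p = 0.154), so the 2 ages were not shown to differ for Scd1. Scd1 rose by 0.70 ± 0.16 with age in the wild type (adjusted p = 0.0234), a call lost without wild type replicate 2 or 3 at either age. The difference with age in the knockout was 0.16 ± 0.16 (adjusted p = 0.637). With the slide as a fixed block the 6-week genotype difference was 0.91 ± 0.29 (adjusted p = 0.131), the average over ages was 0.70 (adjusted p = 0.11) and the wild type age difference 0.58 ± 0.22 (adjusted p = 0.193), and none passed.

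Scd2, the isoform known best from brain and young liver, spanned -0.32 to 0.0028 in young wild type and -0.041 to 0.63 in young knockout livers. The groups overlapped, and the difference of 0.51 ± 0.19 did not pass (adjusted p = 0.0747), although it did without knockout replicate 3 at 6 weeks (0.71, adjusted p = 0.024). At 12 weeks the Scd2 difference was -0.18 ± 0.19 (adjusted p = 0.582).

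Fads1 and Fads2, the front-end desaturases of polyunsaturated fatty acids, differed little between genotypes. The Fads1 difference was 0.11 ± 0.12 at 6 weeks and -0.040 ± 0.12 at 12 weeks (adjusted p = 0.544 and 0.872). For Fads2 it was -0.021 ± 0.12 and -0.13 ± 0.12 (adjusted p = 0.916 and 0.535). The means of both were higher at 12 than at 6 weeks in each genotype, and the ages did not overlap for either gene. Fads1 ran from 3.73 to 4.09 at 6 weeks and from 4.25 to 4.30 at 12 weeks in the wild type, and from 3.74 to 4.14 and 4.15 to 4.31 in the knockout. The age difference of Fads1 was 0.43 ± 0.12 in the wild type and 0.28 ± 0.12 in the knockout (adjusted p = 0.0566 and 0.215), and that of Fads2 0.40 ± 0.12 and 0.29 ± 0.12 (adjusted p = 0.0646 and 0.186), none of which passed. The other Fads2 probe passed for age in the wild type, at 0.45 (adjusted p = 0.0264). Without wild type replicate 1 at 6 weeks both genes passed, at 0.54 for Fads1 and 0.52 for Fads2 (adjusted p = 0.031 and 0.0367).

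**Figure D2:**
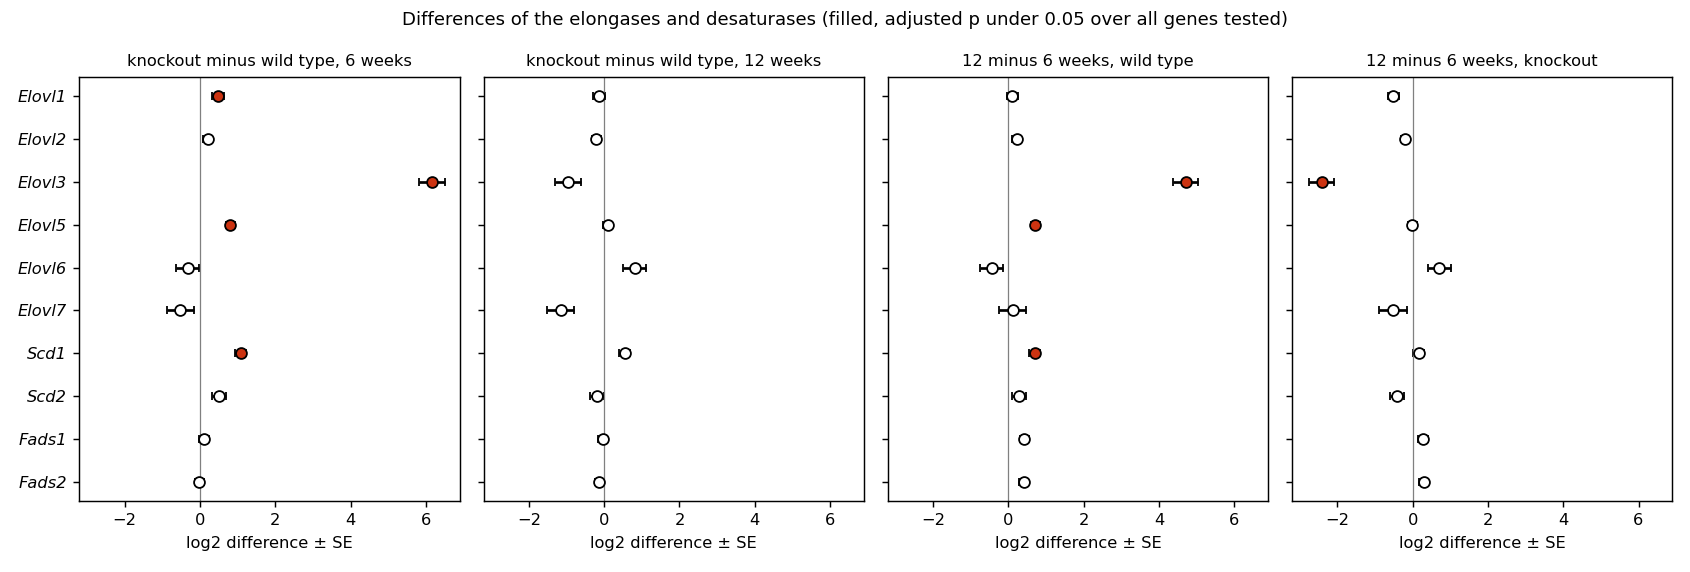
Log2 difference of each member (points, bars 1 SE of the limma fit) in the comparisons of genotype at 6 and 12 weeks and of age in each genotype; filled points have an adjusted p under 0.05. Elovl3 is the only member filled in 3 of the 4 panels, at 6.16, 4.70 and -2.42, and the panel for genotype at 12 weeks has no filled point.

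Across age, 3 members rose in the wild type (Elovl3, Elovl5 and Scd1), where 4.61% of all genes were called higher and 4.43% lower, and none fell, also at an unadjusted p under 0.05. In the knockout Elovl3 alone among the 10 fell, where 2.93% of all genes were called lower and 3.98% higher, and none rose by limma's test, though 3 were higher at an unadjusted p under 0.05. The genotype difference changed with age for 2 members, Elovl3 and Elovl5, both downwards, where 4.76% of all genes were called lower and 5.58% higher. Without overlap between the groups were 4 members for genotype at 6 weeks, 3 at 12 weeks, 6 for age in the wild type and 5 for age in the knockout, with Elovl7 among the 3, beside 47.9%, 27.4%, 26.0% and 31.9% of all genes. The 4 members at 6 weeks and the 3 at 12 weeks were thus close to the share among all genes.

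**Figure D3:**
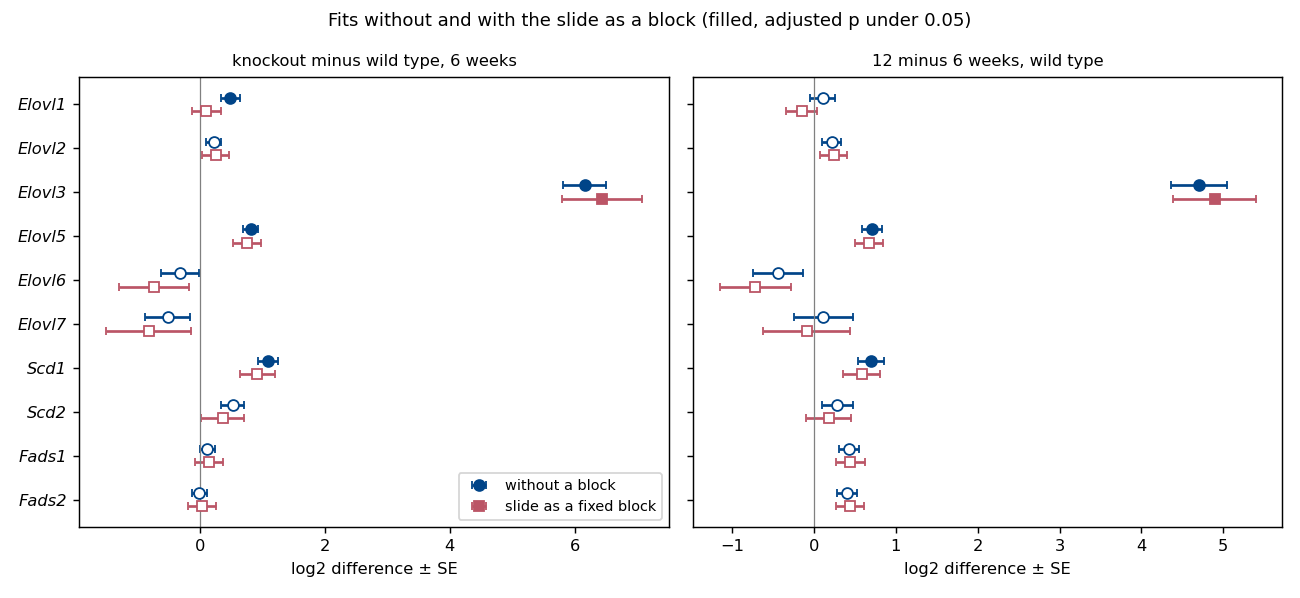
Log2 differences (bars 1 SE) of the members for genotype at 6 weeks and for age in the wild type, from the fit without a block (circles) and with the slide as a fixed block (squares); filled symbols have an adjusted p under 0.05. Elovl3 is filled in both fits, at 6.16 and 6.44 for genotype, whereas Elovl1, Elovl5 and Scd1 are filled only without the block for genotype.

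The remaining enzymes of the same kinds were read from a list. For this and the lists below, 11.7% of all genes were called higher at 6 weeks and 9.34% lower. At 12 weeks the shares were 5.65% and 2.56%. The median over all genes at 6 weeks was 0.017. Of 5 other elongases and desaturases above background, 2 were called higher in the knockout at 6 weeks, Scd3 at 1.28 ± 0.19 (adjusted p = 0.00182) and Fads3 at 0.74 ± 0.15 (adjusted p = 0.00966). Both calls were lost with the slide as a fixed block, at 1.28 for Scd3 and 0.44 for Fads3 (adjusted p = 0.0984 and 0.414). The median of this list was 0.16. The Scd3 probe used is annotated with the accession of Scd1 too, and the other 2 Scd3 probes gave -0.018 and -0.21 (adjusted p = 0.944 and 0.308), so this value cannot be assigned to Scd3. Elovl4, the elongase of retina and skin, and Scd4 were not well above background on all arrays of any group. At 12 weeks none of the 5 was called.

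The steps that follow the condensation by the Elovl enzymes are a reduction, a dehydration and a last reduction, carried out by Hsd17b12, the Hacd dehydratases and Tecr. Of these 6 genes, Hsd17b12 alone was called at 6 weeks, higher by 0.68 ± 0.090 (adjusted p = 0.001), where 11.7% of all genes were called higher. The list's median was 0.16. Hsd17b12 also rose with age in the wild type (0.54 ± 0.090, adjusted p = 0.00701), and its genotype difference changed by -0.55 ± 0.13 between ages (adjusted p = 0.0225). Its calls were lost with the slide as a fixed block, at 0.46 for genotype at 6 weeks (adjusted p = 0.116), 0.39 for age (adjusted p = 0.0895) and -0.40 for the change (adjusted p = 0.104).

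Desaturases draw electrons through cytochrome b5 and its reductases. Of 4 such genes above background at 6 weeks, Cyb5b, the mitochondrial outer membrane form, rose by 0.46 ± 0.12 (adjusted p = 0.0268) and Cyb5a, the microsomal form, fell by 0.30 ± 0.070 (adjusted p = 0.016). The median of the 4 was -0.011, and 11.7% and 9.34% of all genes were called higher and lower. Neither call held with the slide as a fixed block (adjusted p = 0.262 and 0.105), and none of the 4 was called at 12 weeks.

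The substrates of elongation, malonyl-CoA and palmitate, come from a short chain of enzymes. Of 9 genes of this supply, 3 were called higher in the young knockout: Acacb, an acetyl-CoA carboxylase (1.63 ± 0.25, adjusted p = 0.00232), Acly, which makes cytosolic acetyl-CoA (0.95 ± 0.24, adjusted p = 0.0229), and Slc25a1, the citrate carrier (0.38 ± 0.12, adjusted p = 0.0433). The median of the list was 0.34, beside 0.017 over all genes, of which 11.7% were called higher. Acacb makes the malonyl-CoA of the mitochondrial surface and is better known for restraining fatty acid import there than for feeding synthesis. Fasn, the synthase of palmitate, was at 0.76 ± 0.56 and did not pass (adjusted p = 0.353). At 12 weeks Thrsp, a lipogenic nuclear protein, alone was called, at 1.69 ± 0.41 (adjusted p = 0.034). With age in the wild type Me1, which supplies NADPH, rose by 0.66 ± 0.17 (adjusted p = 0.0425) and Thrsp fell by 1.58 ± 0.41 (adjusted p = 0.0401). With the slide as a fixed block these genotype and age calls were lost, with adjusted p from 0.0946 (Thrsp at 12 weeks) to 0.709 (Slc25a1).

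Of 10 regulators of these enzymes, 2 rose and 1 fell in the young knockout, beside 11.7% and 9.34% of all genes. Insig2, which retains the SREBP-SCAP complex in the endoplasmic reticulum, rose 4.05-fold (2.02 ± 0.22, adjusted p = 0.000316), and Mlxipl, the carbohydrate-responsive factor ChREBP, rose by 0.41 ± 0.10 (adjusted p = 0.0162). Ppara, the receptor that drives fatty acid oxidation genes, fell by 0.61 ± 0.13 (adjusted p = 0.0109). The median of the list was 0.25. Srebf1, which encodes SREBP-1, was at 0.37 ± 0.30 at 6 weeks and 0.79 ± 0.30 at 12 weeks (adjusted p = 0.385 and 0.129), and none of the 10 was called at 12 weeks.

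Insig2 was the pathway gene whose called directions were those of Elovl3. It rose with age in the wild type (1.39 ± 0.22, adjusted p = 0.00518), fell with age in the knockout (-1.17 ± 0.22, adjusted p = 0.0117), and its genotype difference changed by -2.56 ± 0.31 (adjusted p = 0.00108). It also passed with the slide as a fixed block, at 2.13 for genotype at 6 weeks (adjusted p = 0.0324), 1.46 for age in the wild type (adjusted p = 0.0445) and -2.63 for the change (adjusted p = 0.0075). Mlxipl rose by 0.36 ± 0.10 with age in the wild type (adjusted p = 0.0441), and lost this call and that at 6 weeks under the block (adjusted p = 0.408 and 0.619). Ppara rose with age in the knockout by 0.76 ± 0.13 (adjusted p = 0.00823), and its 6-week genotype call was lost under the block (-0.80, adjusted p = 0.108).

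Among 13 genes that use or activate the acyl chains, 1 was called at 6 weeks, lower, beside 9.34% of all genes. None was called at 12 weeks. Dgat2, which completes triglycerides, fell by 0.36 ± 0.11 (adjusted p = 0.0379), and fell by 0.51 ± 0.11 with age in the wild type (adjusted p = 0.0162). Its values under the slide block were -0.51 and -0.62 (adjusted p = 0.186 and 0.0571). The list's median at 6 weeks was -0.048.

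**Figure D4:**
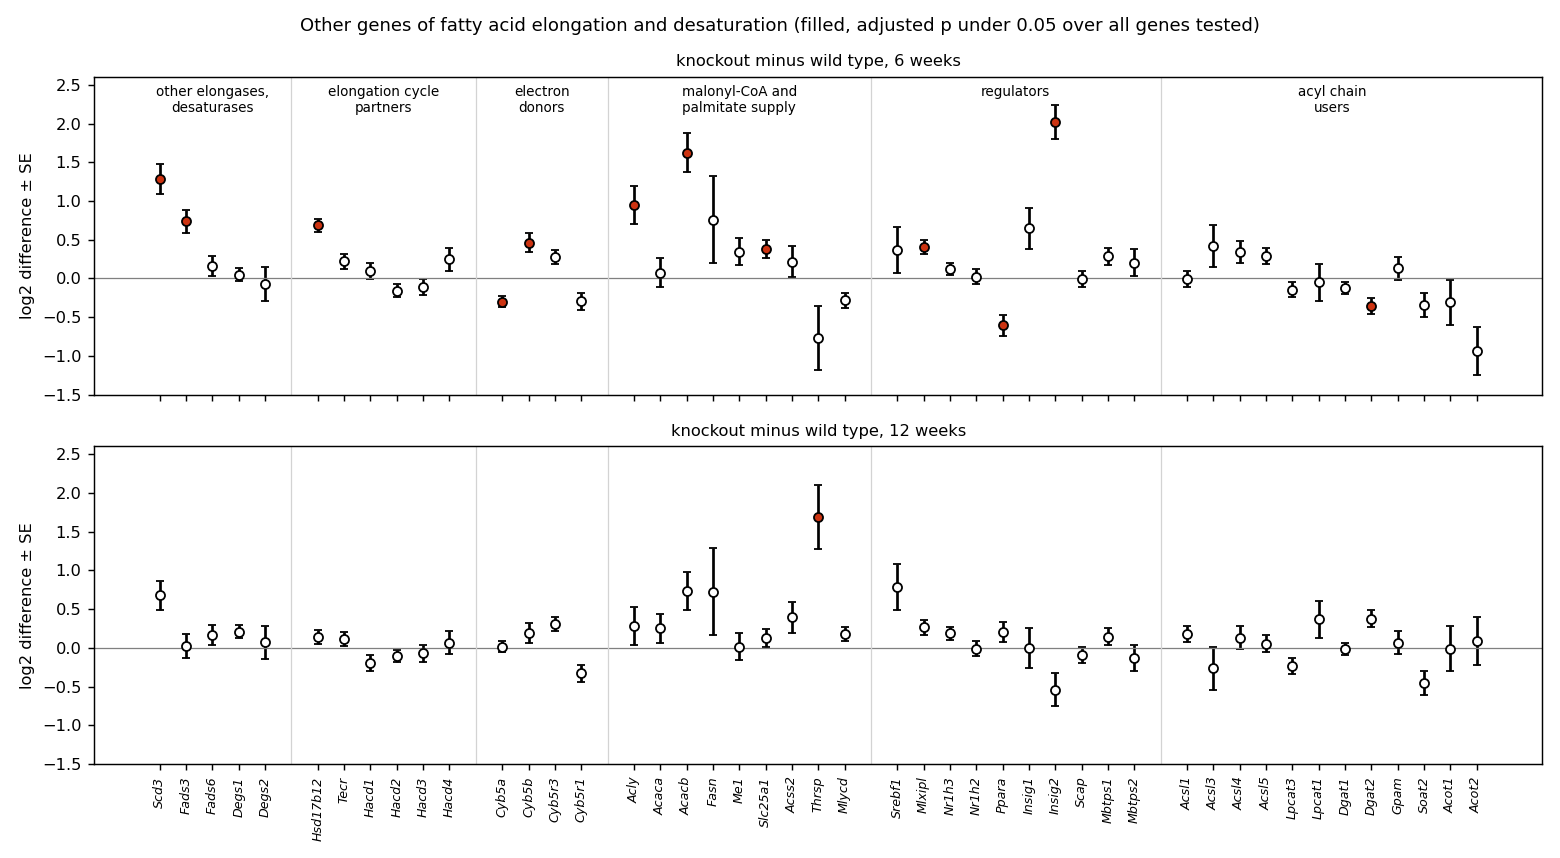
Log2 differences between knockout and wild type (points, bars 1 SE) for the listed genes around elongation and desaturation, at 6 weeks (top) and 12 weeks (bottom); filled points have an adjusted p under 0.05. Insig2 at 2.02, Acacb at 1.63 and the Scd3 probe at 1.28 are the highest points at 6 weeks, and Thrsp at 1.69 is the filled point at 12 weeks.

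Since hepatic Elovl3 is known to depend on sex and time of day, genes of both kinds were read beside it. Of 10 male-biased liver genes, 9 were called higher in the knockout at 6 weeks, led by C6 (3.71 ± 0.16, adjusted p = 2.13e-06) and Cyp7b1 (3.60 ± 0.21, adjusted p = 1e-05), and none at 12 weeks. The fixed slide block left 6 of the male-biased calls at 6 weeks, in a fit where 311 of 22143 genes were called higher. Of 10 female-biased genes tested, 9 were called lower at 6 weeks and 1 at 12 weeks. Among them Cyp2b9, Cyp2b13, Cyp3a44 and Hao2 passed the filter through the young wild type alone, the group where they are high, so that count is partly set by the filter. The 3 female-biased genes above background on all 12 arrays, Cyp2b10, Acot3 and Cyp17a1, were called lower at 6 weeks (-5.70, -4.75 and -0.66, with adjusted p = 0.000302, 0.00262 and 0.0201). The fixed slide block kept the call of Cyp2b10 (adjusted p = 0.0172) but not those of Acot3 and Cyp17a1 (adjusted p = 0.0536 and 0.678). The female-biased genes' summed linear level was 91.5 to 145 in the 3 young wild type arrays and between 12.4 and 29.8 in the other 9. This sum includes Cyp2b9, Cyp2b13, Cyp3a44 and Hao2, so it is partly set by the filter too. Of 19 clock genes, 4 were higher and 11 lower at 6 weeks, led by Dbp (-6.82 ± 0.26, adjusted p = 6.29e-07) and Nfil3 (2.80 ± 0.13, adjusted p = 3.47e-06). Npas2, among the 4, passed the filter through the young knockout alone, the group where it is high, so that count is partly set by the filter. Under the fixed slide block Arntl and Per2, for example, kept their 6-week calls (adjusted p = 0.00451 and 0.0402). So did Clock, Npas2, Per3 and Nr1d1 (adjusted p = 0.0219, 0.0111, 0.00719 and 0.0434). Per1 and Cry2 lost theirs (adjusted p = 0.181 and 0.0634). At 12 weeks 9 were higher, led by Usp2 (2.67 ± 0.29, adjusted p = 0.00179), and none was lower. The part of either set of genes in the differences of Elovl3 and the other members was not tested.

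For the 3 members whose group means ranged over more than 1 log2 unit, the most similar patterns were listed among 13889 named genes, as Pearson correlations over 12 arrays that share the 4 groups and 2 slides. For Elovl3 they were Clock, a core clock transcription factor (r = 0.98), Nhsl1 (0.97) and Denn2b (0.97), and after subtraction of the group means the values were 0.59, 0.56 and 0.80. Clock itself was higher in the young knockout by 1.46 ± 0.12 (adjusted p = 0.000101). For Scd1 the most similar were Acacb (0.97), the Scd3 probe described above (0.97) and Polr3g (0.97), with 0.89, 0.88 and 0.85 within groups. For Elovl7, near background, they were Chmp3 (0.90), Ago1 (0.87) and Psma4 (0.86), with 0.74, 0.73 and 0.78 within groups.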

How the data were processed

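Total RNA of 12 whole-liver samples was measured on 1-colour arrays. Per the file headers, the authors deposited a processed signal, an intensity with fitted background subtracted, detrended and not scaled between arrays, from Agilent Feature Extraction 10.7.3.1, as the submitters' processing notes name it too. Raw mean and background intensities, also deposited by the authors, served an alternative. The deposited value table held the processed intensity rounded to 3 significant digits (largest difference 0.497%, column medians 21.6 to 29.5, linear, not centred, no ratio).

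Control and outlier spots were left out, leaving 55681 probes. Levels are log2 of the processed intensity minus the array's 75th percentile. Probes entered the test if at least 1 group had them well above background on each of its 3 arrays, and a gene was read from its brightest such probe (22143 genes, 29820 probes). The 4 group means were fitted with R 4.3.3 and limma 3.58.1 (lmFit and eBayes; degrees of freedom, 8 residual and 2.23 prior), with Benjamini-Hochberg adjustment over all genes and a threshold of 0.05. The fit was tested on simulated data. Symbols were updated through a RefSeq table for 26582 probes by accession and 492 by synonym, and 26005 kept the file's name. Signal and the number of arrays limit the precision.

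The text names all 10 members, up to 3 genes per pathway list and comparison by p, up to 2 of the sex-biased and clock lists, and the 3 closest patterns of members ranging over 1 log2 unit. The values of Clock, Fasn, Srebf1, Cfd, Klf1 and the named female-biased genes, and those of the flagged pathway genes, were added after the values were seen. Npas2, Arntl, Per1, Per2, Per3, Cry2 and Nr1d1 were added likewise. The members and lists were chosen with earlier results of these data known. Alternatives were the background correction, scaling, filter, slide, replicate block, probes, the samples in the fit, the value table and leaving out each array. A gene of the acyl chain list is counted in its list but not reported or drawn here.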

Additional observations from a re-analysis of the deposited data

Results flagged for a closer look

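The genotype difference at 12 weeks differed from that at 6 weeks for 2 of 10 members and 5 pathway genes. The limma test was of the difference itself. The pathway lists held 5, 6, 4, 9, 10 and 13 tested genes. In this comparison 5.58% of all genes were called higher and 4.76% lower. No test compared the counts of members or pathway genes with these shares. For Elovl3 the change was -7.12 on the log2 scale (adjusted p = 5.77e-05), from 6.16 at 6 weeks to -0.96 at 12 weeks. For Elovl5 it was -0.71 (adjusted p = 0.0241), from 0.81 to 0.09. Among the pathway genes, Hsd17b12, the second enzyme of the elongation cycle, changed by -0.55 (adjusted p = 0.0225), from 0.68 to 0.13. Insig2 changed by -2.56 (adjusted p = 0.00108), from 2.02 to -0.54. Thrsp changed the other way, by 2.46 (adjusted p = 0.0239), from -0.77 to 1.69, as did Ppara by 0.82 (adjusted p = 0.02), from -0.61 to 0.21, and Dgat2 by 0.73 (adjusted p = 0.0128), from -0.36 to 0.38. With the slide as a fixed block Elovl5 and Hsd17b12 did not pass (adjusted p = 0.0906 and 0.104). Every group had 3 arrays, too few for a test of single outlying arrays.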

How the results depend on the processing

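The slide was the setting that moved the counts of members most. With it as a fixed block 1 member, Elovl3, was higher for genotype at 6 weeks (4 without it), for the average over ages (3) and for age in the wild type (3), 1 was lower for the change of the genotype difference (2), 2 were lower with age in the knockout (Elovl3 and Elovl1), and 0 were lower on average over ages. Within slide 1 alone 0 were higher with age in the wild type. The Elovl7 call was lost with the raw-signal background correction, quantile scaling, no filter, the slide as a random block and the replicate block (0 each). It was not tested under the filter on all 12 arrays, which left 0 members lower. Scd1 was called at 12 weeks with the raw-signal correction and with that filter (1 each), Fads1 was called with age in the wild type under that filter (0.43, adjusted p = 0.0486, 4 members higher), Elovl1 was called with age in the knockout with the raw-signal correction (2 lower), and without a filter on dim probes Elovl5 lost the call for the change (1 lower). The causes were not tested.

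Leaving out single arrays gave 0 to 1 members higher at 12 weeks (1 without wild type replicate 1 at 6 weeks or replicate 3 at 12 weeks), 0 to 1 lower on average over ages (1 without knockout replicate 2 at either age), 2 to 5 higher with age in the wild type (5 without replicate 1 at 6 weeks), 1 to 2 lower with age in the knockout (2 without wild type replicate 1 at 12 weeks) and 1 to 3 lower for the change (3 without wild type replicate 1 at 12 weeks). For genotype at 6 weeks 3 to 5 were higher.

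Signs turned only for member differences that passed in none of these settings. For genotype at 6 weeks, Fads2 was 0.030 with the slide block, 0.21 on its other probe and -0.16 to 0.091 without single arrays, and Elovl6 -0.52 to 0.015. At 12 weeks Elovl5 ran from -0.033 to 0.18 and Fads1 from -0.071 to 0.0051 without single arrays. On average over ages Elovl2 was -0.020 with the raw-signal correction, -0.045 with quantile scaling, -0.0031 with median centring and -0.042 to 0.040 without single arrays. Fads1 was -0.015 with quantile scaling and -0.0090 to 0.093 without single arrays, Elovl1 -0.084 and Elovl6 -0.035 with the slide block, and Fads2 0.063 on its other probe. With age in the wild type Elovl1 was -0.15 and Elovl7 -0.089 with the slide block and within slide 1, and -0.021 to 0.23 and -0.085 to 0.22 without single arrays. With age in the knockout Elovl5 was 0.020 with the raw-signal correction, 0.033 with quantile scaling and -0.13 to 0.087 without single arrays. The change of the genotype difference of Fads2 was -0.22 to 0.030.

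The replicate numbers did not pair the samples (correlations of deviations -0.086 to 0.18, and 6 of 12 arrays were most like an array of the same number). With the replicate block 3 members were higher for genotype at 6 weeks, without Elovl1, and 4 with age in the wild type, with Fads1 at an adjusted p of 0.0415.

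Counts over all genes moved more than 1.5 times. For genotype at 6 weeks they were 4661, 585 with the fixed and 1228 with the random slide block, and 2542 to 6206 without single arrays. At 12 weeks they were 1816, 825 without a filter, 728 on slide 2, 378 with the 2 groups alone and 678 to 2075 without single arrays. On average they were 4538, 3015 without a filter, 392 and 987 with the fixed and random block, and 2811 to 5383 without single arrays. With age in the wild type they were 2001, 1230 without a filter, 728 and 1080 with the blocks, 9 on slide 1, 395 with the 2 groups alone and 981 to 3809 without single arrays. With age in the knockout they were 1530, 730 without a filter and 629 to 1835 without single arrays. For the change they were 2288, 1341 without a filter and 1562 to 3317 without single arrays. The deposited value table changed no count of members.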
